A study of Mus musculus with 18 samples.

Results

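Ptgs2, 5 genes of the REL family and 4 genes that answer to or restrain NF-kappaB are described here as they were transcribed in mouse embryonic stem (ES) cells. The 10 genes (Ptgs2, Nfkbia, Tnfaip3, Cxcl1, Icam1, Nfkb1, Nfkb2, Rela, Relb and Rel) were chosen by symbol, and each was found once among the 21859 genes of the deposited gene table. They were proposed with earlier results of these data in view, among them the authors' own contrast of SPT16-depleted and control cells, so what follows is a description of levels and holds no test. Promoter upstream transcripts (PROMPTs) are short RNAs made antisense to a gene from the region before its start. Among 32253 PROMPTs, those of 8 of the 10 genes were listed, all but Ptgs2 and Nfkb2.

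The measurement was transient transcriptome sequencing (TT-seq), in which RNA made during a 5 min pulse of 4-thiouridine is isolated and sequenced, so that values follow ongoing transcription and not the stock of finished mRNA. The cells were E14 ES cells that all carried the plant F-box protein osTIR1, grown with serum, LIF and inhibitors of GSK and MEK. Untagged cells and 2 clones in which Supt16, encoding the FACT histone chaperone subunit SPT16, carried a C-terminal mini-AID degron and a V5 tag were each given 0.1% ethanol or the auxin 3-IAA for 24 h. This gave 6 conditions with 3 libraries each, of which the 6 libraries of tagged cells with auxin were those depleted of SPT16. Each clone is a line of its own, and osTIR1 was present in the controls too. The labels give 500 nM auxin and 500 mM 4-thiouridine, where the methods give both in micromolar units.

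The only level per gene used here was the authors' mean of normalized counts over all 18 libraries, controls and SPT16-depleted cells together. Values in single libraries were not analysed here, so the spread between libraries is unknown, no SD between replicates can be given, and the conditions cannot be compared. The tables do retain how deeply each mean was sampled. Genes with a single read in a single library took 18 distinct values, from 0.0216 to 0.115, a 5.34-fold range, which is what 1 read added to the mean in each library. Dividing a gene's mean by these values gives the fewest and the most reads that can lie behind it, and an upper limit on its counting SD. That SD covers counting error only, and for amplified reads it is not a count of independent molecules.

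NF-kappaB is a family of dimeric transcription factors built from REL-domain subunits. In most resting cells the dimers are held in the cytoplasm by IkappaB proteins, and receptors for TNF, interleukin-1 or microbial products release them through the IkappaB kinase complex, which marks the inhibitor for destruction. The released dimers switch on genes of inflammation together with genes for their own inhibitors, so that the response ends itself. ES cells are known for a weak inflammatory response before they differentiate. Ptgs2 encodes cyclooxygenase-2, the inducible enzyme that commits arachidonic acid to prostaglandins, and is a textbook NF-kappaB target in stimulated macrophages and fibroblasts.

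The labelled cell type was checked first. All 8 ES cell markers had high levels, from 401 normalized counts per kb of gene span for Esrrb to 2910 for Sox2, with Nanog at 2070 and Pou5f1, which encodes OCT4, at 1595. Haematopoietic and macrophage markers summed to 422 per kb over 8 genes, of which the lysosomal glycoprotein gene Cd68 alone gave 415, while the leukocyte marker Ptprc stood at 0.0505. Itgam was listed at 0, but 99.9% of its span is shared with Gm49368 on the same strand. The 7 fibroblast markers summed to 31.5 per kb, mostly Pdgfrb at 23.8, with Dcn at 0.0510. Of the 144 per kb in 5 endothelial markers, Pecam1 gave 137, Tek 4.81, Kdr 2.42, Cdh5 0.179 and Tie1 0.170. The part of other cells, or of differentiating cells, in the levels below was not tested.

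Levels of different genes are compared only after division by length, and the length used was the gene span, because nascent RNA covers introns as well as exons. The deposited values fit counting over whole spans: of 190 coding genes lying inside another coding gene of the same strand and sharing no exon with it, 188 (98.9%) were listed at 0, against 7.79% of all genes. The 0 of a gene whose span lies within another listed gene was therefore not read as a lack of transcription. None of the 10 genes overlapped another listed gene on its own strand. Values per kb of exon divide the same mean by the summed length of the exon blocks. Where intron reads are in the mean, such a value grows with intron length and is not a density of exon reads.

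All 10 genes were transcribed, taking a mean of at least 1 as the limit, and 9 of them had a mean of at least 100. Of all listed genes, 80.9% passed the first limit and 57.3% the second. The median of the 10 was 59.9 normalized counts per kb, against 21.7 over all genes with reads and 38.9 over genes with a mean of at least 1. Of the 10, 7 lay above the first of these medians and 6 above the second. The levels ran over a 130-fold range from Nfkbia to Cxcl1, or 262-fold per kb of exon.

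**Figure D1:**
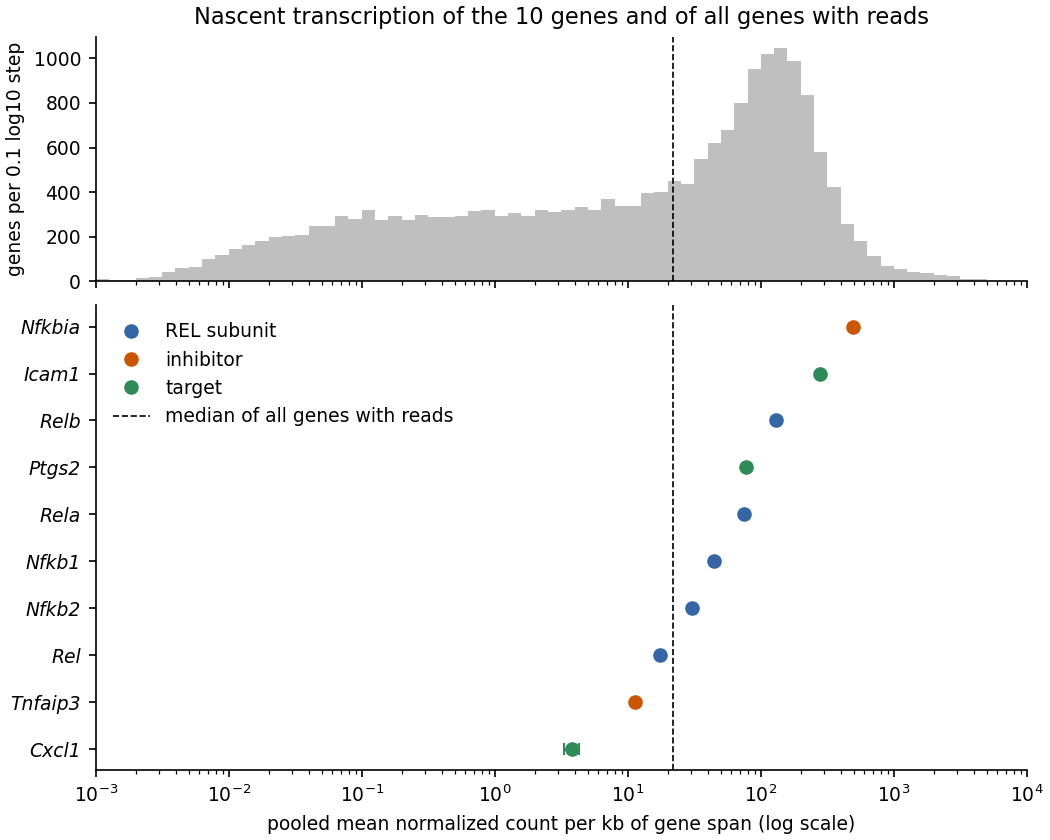
Level of each of the 10 genes as the authors' pooled mean normalized count per kb of gene span on a log scale, beside the distribution of all genes with reads and with the median of those genes as a dashed line; bars give the upper limit of the counting SD, wider than the point only for Cxcl1, and the few genes beyond the ends of the axis are left out. Nfkbia stands highest at 496 and Cxcl1 lowest at 3.81, and Rel, Tnfaip3 and Cxcl1 lie below the median of 21.7.

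Ptgs2 (ENSMUSG00000032487) lies on the plus strand of GRCm38 at chr1:150100031-150108227 and has 11 exon blocks in 8197 bp. Its pooled mean was 630 normalized counts, from between 5466 and 29177 read pairs, with a counting SD of at most 1.35%. Per kb of span this was 76.8, higher than 66.2% of the genes with reads. In this mean over control and SPT16-depleted cells, Ptgs2 thus stood above the middle of all genes per kb of span. Per kb of exon (51.4%) and with no division by length (53.9%) it lay close to the middle. Ptgs2 stood 26.9 times below Nanog per kb (48.0 times per kb of exon). The gene Ptgs2os lies at least in part within 1 kb upstream of the Ptgs2 start.

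The other cyclooxygenase gene, Ptgs1, encodes the enzyme usually regarded as constitutive, yet per kb of span it stood 39.2 times below Ptgs2, at 1.96. Per kb of exon the gap was 12.5-fold. Downstream of cyclooxygenase, the prostaglandin E synthase gene Ptges3, which also encodes the co-chaperone p23, gave 609 per kb of span. Ptges2 gave 70.7 and the inducible Ptges 49.7, both below Ptgs2. The same means divided by exon length gave 511 for Ptges, whose span is 40393 bp, against 138 for Ptgs2. Pla2g4a, whose product cytosolic phospholipase A2 frees arachidonic acid, stood at 0.939. All 15 genes of the prostaglandin list had a mean of at least 1, but their median per kb was 7.93 and only 6 lay above the median of all genes with reads. The lowest was Tbxas1, the thromboxane synthase gene, at 0.127. These pairs, unlike the list itself, were picked after the values were seen.

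The inhibitors came out at both ends of the order. Nfkbia (ENSMUSG00000021025, minus strand, chr12:55489410-55492647) encodes IkappaB-alpha, which holds NF-kappaB dimers in the cytoplasm and is itself an NF-kappaB target. It is the second shortest of the 10, with 3238 bp in 6 exon blocks. Its mean of 1607 normalized counts (counting SD at most 0.847%) gave 496 per kb, higher than 97.1% of genes with reads. Its relatives Nfkbib and Nfkbie, encoding IkappaB-beta and IkappaB-epsilon, stood at 72.0 and 41.7 per kb, that is 6.89 and 11.9 times lower (3.25 and 9.76 times per kb of exon).

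Tnfaip3 (ENSMUSG00000019850, minus strand, chr10:19000910-19015657) encodes A20, a ubiquitin-editing enzyme that shuts off signalling to the IkappaB kinase. Its mean of 168 normalized counts over 14748 bp gave 11.4 per kb, 43.6 times below Nfkbia and below the median of all genes. Although both are feedback inhibitors, Tnfaip3 was the lowest of the 11 inhibitors and negative regulators per kb of span and Nfkbia the highest. With the same means divided by exon length Nfkbia, at 998, came after Otulin at 3416, Tnip1 at 3321 and Bcl3 at 1276. Otulin and Tnip1 have spans of 88059 and 52133 bp, against 3238 bp for Nfkbia. All 11 had a mean of at least 1, against 80.9% of all genes, and their median was 65.7 per kb. The A20-binding protein gene Tnip1 gave 225, the atypical IkappaB gene Bcl3 gave 221 and the deubiquitinase gene Cyld gave 53.9.

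All 5 REL family genes were transcribed, and they spread over 7.53-fold per kb. Relb (ENSMUSG00000002983, minus strand, chr7:19606217-19629438), whose product acts in the non-canonical branch, was highest at 131 per kb and made up 43.9% of the family's summed level per kb. Rela (ENSMUSG00000024927, plus strand, chr19:5637483-5648130), encoding the p65 subunit of the canonical dimer, followed at 75.1 per kb and 25.1%. Relb stood 1.75 times above Rela, and 3.01 times per kb of exon.

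Nfkb1 (ENSMUSG00000028163, minus strand, chr3:135584655-135691547), the source of p50, had the highest undivided mean of the 10, at 4772 normalized counts, but spread over 106893 bp this was 44.6 per kb. Nfkb2 (ENSMUSG00000025225, plus strand, chr19:46304320-46312385), the source of p52, gave 30.4 per kb. Psd and the long noncoding RNA gene AC114539.1 lie on the opposite strand of part of its span. AC114539.1 also lies at least in part within 1 kb upstream of the Nfkb2 start. Rel (ENSMUSG00000020275, minus strand, chr11:23736847-23770970) encodes c-Rel, the subunit best known from lymphocytes. It was the lowest of the family at 17.4 per kb, or 5.83% of the family sum, and was the only family member below the median of all genes with reads on this scale. Per kb of exon Nfkb2 was below that median too, higher than 42.5% of genes with reads against 46.0% for Rel, and with no division by length Nfkb2 was below it (44.7%) and Rel above (53.4%).

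**Figure D2:**
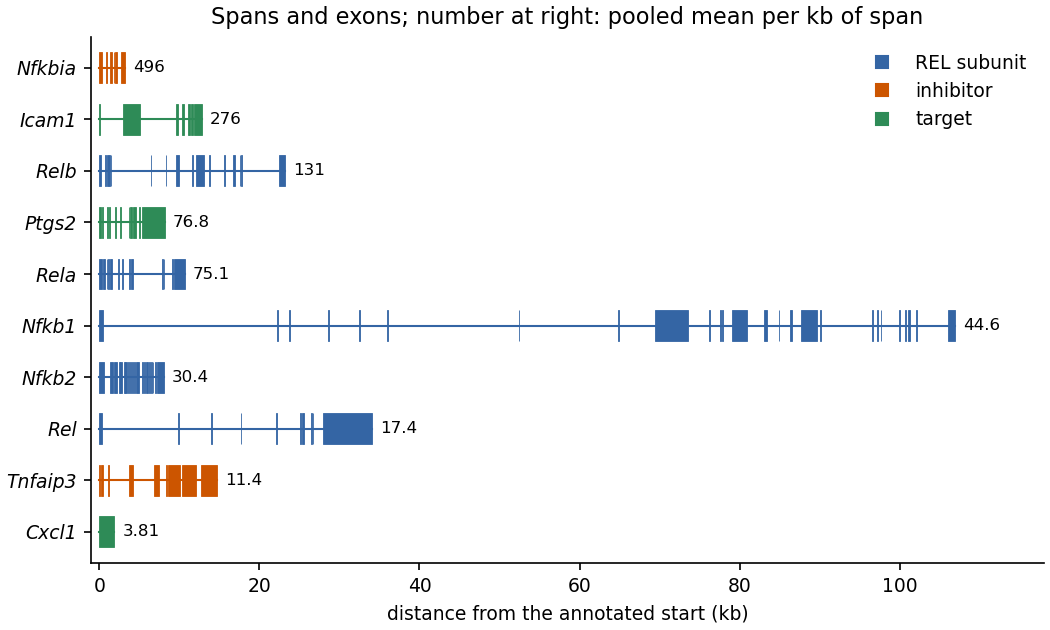
Exon blocks (boxes) and gene spans (lines) of the 10 genes by distance from the gene start, drawn from all transcripts of the Gencode annotation together (retained introns count as exon), with the level per kb of span at the right. Nfkb1 spans 106893 bp with 26 exon blocks and Cxcl1 1875 bp, so the same mean count stands for very different levels per kb.

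Of the other targets, Icam1 (ENSMUSG00000037405, plus strand, chr9:21015985-21028817) encodes an adhesion molecule that binds leukocyte integrins. It gave 276 per kb (mean 3544, counting SD at most 0.570%), higher than 92.3% of genes with reads and 3.59 times above Ptgs2 (5.91 times per kb of exon). An antisense gene, Gm47079, overlaps it on the opposite strand. The adhesion gene Vcam1, induced beside Icam1 in activated endothelium, stood 754 times below it, at 0.366 per kb.

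Cxcl1 (ENSMUSG00000029380, plus strand, chr5:90891241-90893115) encodes a neutrophil chemoattractant. Its mean was 7.15 normalized counts, from at least 63 and at most 331 read pairs over all 18 libraries, and its counting SD was at most 12.7%. Per kb it gave 3.81, 20.1 times below Ptgs2 (36.1 times per kb of exon), and was the lowest of the 10. The related chemokine gene Cxcl2, at 0.0553, rested on 1 to 5 read pairs, and Ccl2, at 0.0338, on 1 or 2.

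In the order per kb, neighbours were well separated relative to the upper limit of counting error except in a single place. Differences in counting SDs use this upper limit, so each is a least value. Ptgs2 and Rela differed by a ratio of 1.02, or at least 1.29 counting SDs, and were not ordered. For the other 8 neighbouring pairs these least values were 13.3 to 82.0 counting SDs. Since the spread between libraries is unknown, none of these differences was tested against replicate error. The order also depended on the length used. Per kb of exon, Nfkb1 moved ahead of Rela and Ptgs2, and Rel ahead of Nfkb2, whereas Nfkbia, Icam1 and Relb stayed the top 3 and Tnfaip3 and Cxcl1 the bottom pair.

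The rest of the pathway was described by 8 lists holding 88 different genes, all of which were in the gene table. Of these, 77 (87.5%) had a mean of at least 1, against 80.9% of all genes, and among the 78 that are not among the 10 it was 67. The lists differed by role. All 10 genes of the kinase list were transcribed, with a median of 89.4 per kb and 9 above the median of all genes with reads. That list holds kinases together with partner proteins of kinases, encoded by Ikbkg, Tab1, Tab2 and Tab3. Its median was 4.12 times that of all genes, and 7.27 times per kb of exon. Map3k7, encoding TAK1, was the highest kinase gene at 241 and Ikbke the lowest at 12.6. Of the 14 genes listed as adaptors and ubiquitin ligases, 13 were transcribed, and the list median was 84.5. This list also holds the kinase genes Ripk1, Irak1 and Irak4. Levels of those with reads ran from Traf5 at 3.55 to Rbck1, which encodes HOIL-1 of the linear ubiquitin ligase, at 237. Myd88 was listed at 0, but its whole span (100%) is shared with Slc22a14 on the same strand.

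The receptor and ligand lists had lower medians than the lists of REL family, inhibitor, kinase and adaptor genes. All 9 receptor genes had a mean of at least 1, but their median was 5.48 per kb. Of the 9, 3 lay above the median of all genes with reads, with Tlr2 highest at 171 and Tlr3 lowest at 0.464. Of 8 ligand genes, 5 had a mean of at least 1, none was above the median of all genes, and their median was 0.204. Ltb, encoding lymphotoxin-beta, was the highest ligand gene at 9.24, Tnf stood at 0.187, Il1b at 0.0145 and the T cell ligand gene Cd40lg at 0.00637. Tnf rested on 5 to 22 read pairs, Il1b on 1 to 4 and Cd40lg on 1 to 3, so the lowest ligand genes cannot be ordered.

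Among the 17 targets, 10 had a mean of at least 1 and 3 lay above the median of all genes: Icam1, Ptgs2 and Sod2, the mitochondrial superoxide dismutase gene, at 248 per kb. The median of the targets was 0.366 and the lowest was Ccl5 at 0.0149, from 1 to 3 read pairs. Il6 stood at 0.349. Ptgs2 and Icam1 thus belonged to the upper end of a list whose other members were mostly at low levels. The list does not hold every target. Nfkbia, also an NF-kappaB target, was placed among the inhibitors and stood at 496 per kb. The median of the targets therefore depends on how the lists were divided.

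**Figure D3:**
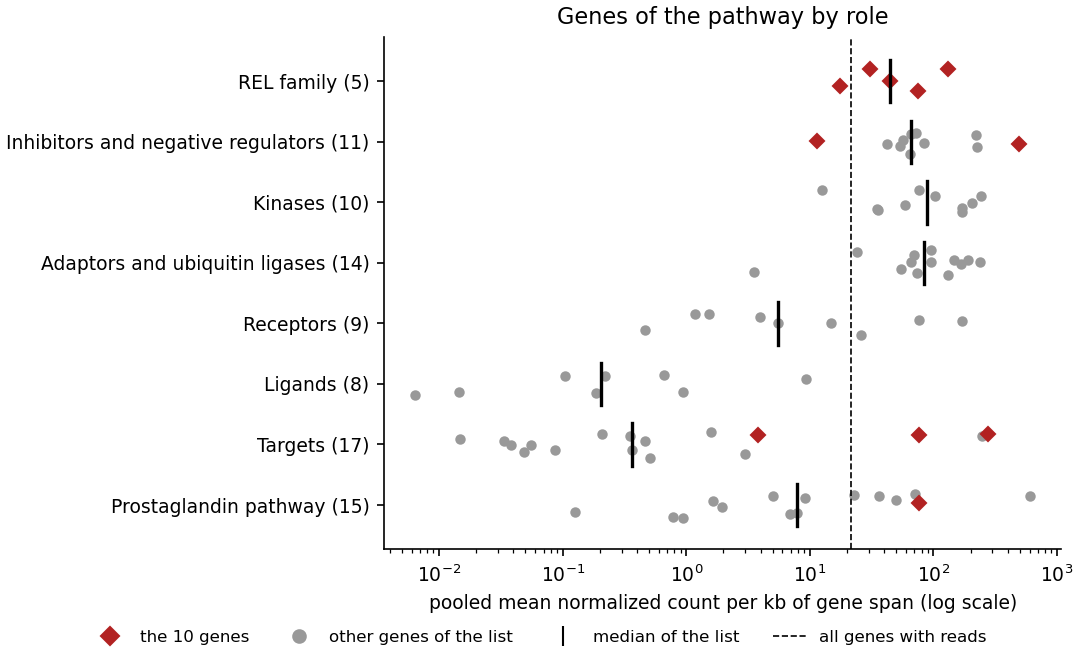
Pooled mean normalized count per kb of gene span (log scale) of each gene with reads in the 8 lists, with the 10 genes as diamonds, the median of each list as a bar and the median of all genes with reads as a dashed line. The lists named for kinases, adaptors and inhibitors have medians of 65.7 to 89.4, and those for ligands and targets of 0.204 and 0.366.

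The sequence before the start is where PROMPTs arise and where NF-kappaB is known to bind its targets, and it is shown for the targets and inhibitors. RefSeq promoter windows on GRCm38.p6, from 250 bases before to 50 after each start, were at hand for 8 of the 10 genes (all but Nfkb1 and Relb), in 11 windows. The kappaB consensus of 10 letters (GGG, a purine, 2 free positions, 2 pyrimidines, CC) was searched on both strands. It was present in 5 of the 8 genes, Nfkbia, Tnfaip3, Cxcl1, Nfkb2 and Rel, and in 8.46% of all 32851 windows. Without its first G it was present in 7 of the 8, now with Ptgs2 and Icam1, and in 26.6% of all windows. A gene counted if any of its windows matched (Tnfaip3 had 2 and Nfkb2 had 3), whereas the shares are of single windows. Each gene with a match had it in its first window. GC content of the first windows ran from 56.7% in Tnfaip3 to 75% in Rel, against a median of 52.7% over all windows. The shares of all windows are thus not matched for GC content. Several of these genes are textbook targets, and a match is a description of the letters and not a site.

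The 250 bases before each RefSeq start follow, 5′ to 3′ along the gene. This start is the Gencode start of the span in Ptgs2 and Nfkbia, lies 4 bases after it in Cxcl1 and shortly before it in Icam1, and lies 247 bases inside the span in Tnfaip3, so that nearly all of the Tnfaip3 stretch is within the span used for its level. Capitals mark the 10-letter match in Nfkbia, Tnfaip3 and Cxcl1 and the 9-letter match in Ptgs2 and Icam1.
Ptgs2, chr1:150099781-150100030, plus strand: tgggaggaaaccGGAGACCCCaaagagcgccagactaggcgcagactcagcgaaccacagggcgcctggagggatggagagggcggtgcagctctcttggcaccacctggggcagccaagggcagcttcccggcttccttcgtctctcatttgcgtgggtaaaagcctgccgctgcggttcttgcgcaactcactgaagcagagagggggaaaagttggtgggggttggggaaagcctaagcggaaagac
Nfkbia, chr12:55492648-55492897, minus strand: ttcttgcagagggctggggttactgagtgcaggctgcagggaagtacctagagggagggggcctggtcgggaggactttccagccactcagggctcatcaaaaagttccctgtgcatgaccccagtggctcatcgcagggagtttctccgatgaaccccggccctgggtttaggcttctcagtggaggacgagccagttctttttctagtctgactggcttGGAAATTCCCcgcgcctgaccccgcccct
Tnfaip3, chr10:19015411-19015660, minus strand: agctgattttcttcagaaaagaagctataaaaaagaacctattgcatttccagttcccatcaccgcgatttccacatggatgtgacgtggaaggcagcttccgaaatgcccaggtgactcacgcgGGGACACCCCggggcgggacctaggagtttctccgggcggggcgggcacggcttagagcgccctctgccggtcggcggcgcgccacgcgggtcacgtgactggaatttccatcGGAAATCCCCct
Cxcl1, chr5:90890995-90891244, plus strand: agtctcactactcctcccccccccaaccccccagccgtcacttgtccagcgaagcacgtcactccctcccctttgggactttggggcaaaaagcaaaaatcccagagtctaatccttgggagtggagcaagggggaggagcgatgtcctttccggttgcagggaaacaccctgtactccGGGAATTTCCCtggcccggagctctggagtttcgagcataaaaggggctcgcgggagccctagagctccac
Icam1, chr9:21015690-21015939, plus strand: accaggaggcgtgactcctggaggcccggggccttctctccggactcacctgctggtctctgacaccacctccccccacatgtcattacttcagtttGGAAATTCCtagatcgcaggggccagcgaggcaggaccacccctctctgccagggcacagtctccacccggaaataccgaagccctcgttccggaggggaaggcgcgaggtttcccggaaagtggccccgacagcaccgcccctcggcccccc

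The Nfkbia match GGAAATTCCC runs from -29 to -20 relative to the RefSeq start. Tnfaip3 has GGGACACCCC from -125 to -116 and GGAAATCCCC from -12 to -3. In Cxcl1 a pair of overlapping matches, GGGAATTTCC from -71 to -62 and GGAATTTCCC from -70 to -61, share all but their outer bases. The 9-letter match of Ptgs2 is GGAGACCCC from -238 to -230, and that of Icam1 is GGAAATTCC from -153 to -145. Genes with a match thus included both the highest (Nfkbia) and the lowest (Cxcl1) of the 10. The letters TATAAA on the gene's strand were found in Tnfaip3, from -225 to -220, and in Icam1, past the RefSeq start, from 13 to 18. They were present in 8.32% of all windows.

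The windows also differed in CpG content. Rel held 42 CpG dinucleotides, more than 97.0% of all windows, and Rela held 31. Ptgs2 held 16, Nfkbia 15 and Cxcl1 10, and the median of all windows was 7. No member window was below that median except the second Tnfaip3 window, with 6.

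PROMPTs were measured by the authors over the 1000 bp before a start, antisense to the gene. Single-read values in this table took another 18 values, from 0.0266 to 0.129, and none was shared with the gene table. The 2 tables were therefore normalized separately, and PROMPT and gene levels are set side by side with no ratio. Ptgs2 and Nfkb2 had no listed PROMPT. Of the 8 PROMPTs, 5 had a mean of at least 1, against 46.8% of all PROMPTs with reads, and the same 5 lay above the median of 0.815.

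Icam1 and Rela had the highest PROMPT levels, 37.5 and 33.7 normalized counts. They differed by at least 1.24 counting SDs and were not ordered. Rela was higher than 94.3% of PROMPTs with reads. Nfkbia followed at 26.9, higher than 92.8%, and at least 2.44 counting SDs below Rela. The PROMPTs of Rel and Relb were at 9.23 and 6.99, lay at least 1.55 counting SDs apart and were not ordered either. Over all 8 PROMPTs the median percentile was 81.6.

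The other 3 PROMPTs rested on few reads. That of Cxcl1 had a mean of 0.486, from 4 to 18 read pairs, and that of Nfkb1 0.227, from 2 to 8. The mean of 0.0610 for Tnfaip3 equals the sum of 2 single-read values, so it stands for 2 read pairs in all 18 libraries. Nfkb1 and Tnfaip3 differed by at least 0.861 counting SDs and Cxcl1 and Nfkb1 by at least 0.854, and these 3 were not ordered at this depth. Gene and PROMPT orders were not the same: Relb stood above Rela as a gene (131 against 75.1 per kb) and below it as a PROMPT (6.99 against 33.7). Nfkb1, at 44.6 per kb as a gene, had a PROMPT of at most 8 read pairs.

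**Figure D4:**
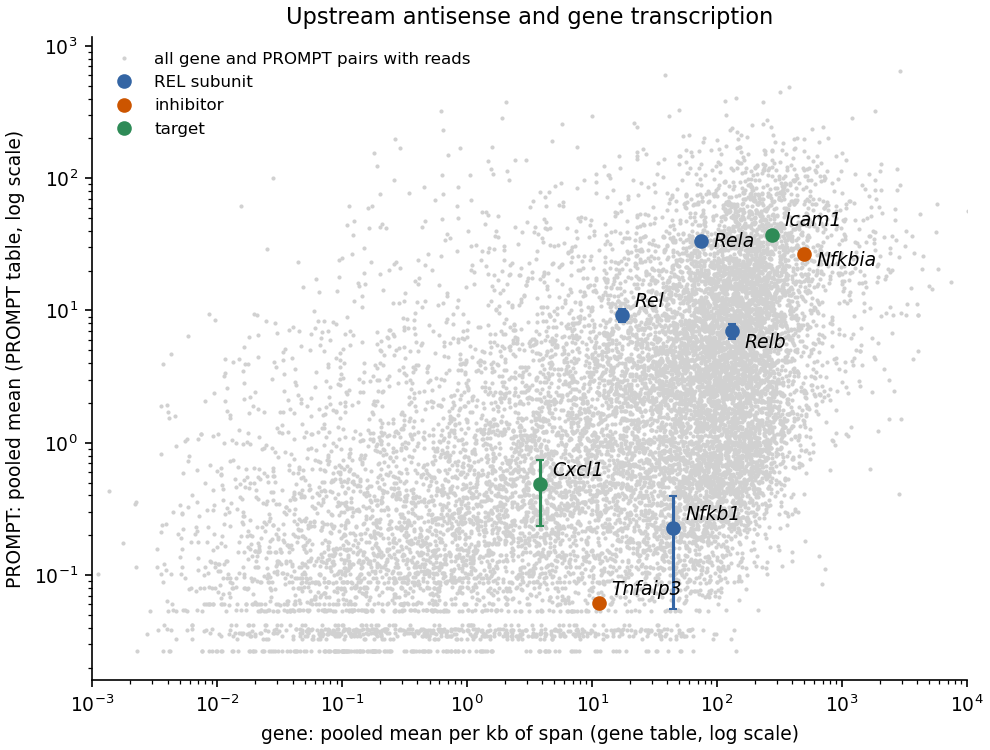
Pooled mean PROMPT level against the level of the gene per kb of span, both on log scales, for all 13709 pairs with reads in both tables (grey) and for 8 of the 10 genes (named). Bars give the upper limit of the counting SD and are left out for Tnfaip3, whose PROMPT rests on 2 read pairs; Icam1, Rela and Nfkbia lie at 26.9 to 37.5 and Cxcl1, Nfkb1 and Tnfaip3 below 0.5.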

How the data were processed

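Total cellular RNA labelled with 4-thiouridine was sequenced from 18 libraries in 6 conditions. According to the study's methods, adapters were removed (Trim Galore), read pairs with a unique STAR alignment to mm10 were kept, and the authors counted them by strand with featureCounts for use in DESeq2. The labels' processing notes from the submitters name STAR, HTSeq and deepTools, so the counter differs between sources. The deposited values used here are the authors' mean normalized counts (a signal per gene and per PROMPT), pooled over all libraries. The tables also hold the authors' own comparison of SPT16-depleted with control libraries (shrunken log2 fold changes, their SE, p-values and adjusted p-values). These columns were not used, and no value per library was analysed here. Tables of eRNAs and other noncoding RNAs were not used.

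Means were divided by gene spans of Gencode vM21 on GRCm38, the build of the files; 42 genes had no span. Percentiles were taken among the 20140 genes with reads and a span. Single-read values were read from the most frequent low means, and the search was tested on simulated data. Reads behind a mean lie between the mean divided by the largest and by the smallest such value. Total reads per library were not analysed here; in normalized counts the gene means sum to 55898466 and the PROMPT means to 241485. Motifs were searched in RefSeq promoter windows (GRCm38.p6). Python 3.11.15, numpy 2.4.6, pandas 2.3.3 and matplotlib 3.10.9 were used. The genes and lists were chosen with earlier results of these data known. Of the other lists, the highest gene, the lowest with reads and those listed at 0 were named; other genes named from them were chosen after their values were seen.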

Additional observations from a re-analysis of the deposited data

How the results depend on the processing

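The median percentile of the 10 genes, 61.8 per kb of span among all genes with reads, was 55.4 per kb of exon, 56.5 among genes with a mean of at least 1, and 55.3 with no division by length. The median percentile was 81.6 over all 8 PROMPTs and 92.8 over the 5 with a mean of at least 1, which was 84.6 when ranked only among PROMPTs with a mean of at least 1. The number of genes with a kappaB match was 5, 7 without the first G, and 8 with 5 free positions, a pattern present in 50.8% of all windows. At higher limits 9 of the 10 genes passed 10 and 100, and 68 of the 88 pathway genes passed 10. Of all listed genes 57.3% passed 100. The share of all genes that passed 10 is not given here, so the counts at 10 have no background. Of the lists, ligands went from 5 to 2 and targets from 10 to 6 at a mean of 10. Per kb of exon the list median, relative to that of all genes, went from 4.12 to 7.27 for kinases, from 3.90 to 2.31 for adaptors and ubiquitin ligases, and from 0.0169 to 0.00677 for targets, and the other 11 of 16 list values stayed within 1.5 times. The search for single-read values found 18 values at the main setting and 17 or 18 at the others. Of 30 percentiles of single genes under the alternatives, 28 were within 1.5 times of the main value, but 0 lay within the interval given by counting error. A limit of 1.5 times is wide for a percentile. With no division by length, Nfkbia went from 97.1 to 66.3 and Nfkb1 from 57.9 to 82.5, both inside it. Cxcl1 went from 36.6 to 23.7 per kb of exon and to 21.6 with no division by length. No paired analysis was possible because only means over all libraries were used. For the same reason leaving out a replicate, a count test between conditions, its second tool and its filter were not run, and the PROMPT to gene ratio was not run because the tables were normalized separately. Depth limits the PROMPTs of Cxcl1, Nfkb1 and Tnfaip3, and the lowest ligand and target genes.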
